A study of Mus musculus with 4 samples.

Results

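The TBX5 binding sites around 3 genes of skeletal development, Sox9, Shox2 and Trps1, were examined in the mouse forelimb bud. TBX5, a T-box transcription factor that is needed to start forelimb outgrowth, was profiled by ChIP-seq, a method that pulls down the chromatin a protein occupies with an antibody and sequences the recovered DNA. The sites were the listed peaks whose summit, the position of strongest enrichment, fell in a window around each gene. The windows ran from 110.9 to 113.2 Mb of chromosome 11 for Sox9, from 66.2 to 67.3 Mb of chromosome 3 for Shox2, and from 50.0 to 51.8 Mb of chromosome 15 for Trps1. They held 45, 26 and 20 peaks, 91 in all, of the 11224 in the deposited list. The windows were chosen by where the listed peaks lie, with signal in view for all 3. At Trps1 the choice also named the strength of 1 peak. Peak number, position and signal are therefore given as a description, without a test.

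Chromatin came from forelimb buds of embryonic day 10.5 mice of the outbred ICR stock, of wild-type genotype. Of the 4 libraries, 2 were precipitated with a polyclonal antibody against TBX5 and 2 were input, the sheared chromatin sequenced without precipitation. The data are 1 list of peaks for the TBX5 libraries together, so no peak has a value per replicate, and read depth is unknown. How many embryos were pooled is not given in the labels.

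The cartilage skeleton of the limb is laid down in mesenchyme that condenses and turns into chondrocytes. Sox9 encodes an HMG-box transcription factor that is required for these condensations and for cartilage genes. Its regulatory sequence is known to extend far into the gene-poor stretches on both sides. Shox2 encodes a homeodomain factor needed for the proximal limb skeleton, the upper arm and thigh. Trps1 encodes a zinc-finger repressor of the GATA type that acts in chondrocytes and joints, and its human counterpart is mutated in tricho-rhino-phalangeal syndrome.

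Gene positions are approximate, rounded to 0.01 Mb, and refer to the mouse build mm9. The library names give the build as mm10 (GRCm38), but on chromosome 7 the RefSeq table of GRCm38.p6 has no protein-coding gene as far along as 29 of the summits, the farthest of which lay 7.07 Mb past its last gene. On chromosomes 3, 11 and 15 no summit lay past the last gene. Among the 136 summits above 100 Mb on chromosome 11, 4 lay within 1000 bp of a protein-coding gene end of that table as listed, and 21 did after 139 kb had been added. That shift was the best of all tried, up to 400 kb either way, over which the mean was 6.31 summits. The best shift over 2 kb away from it, 231.5 kb, gave 18. The table places Sox9 0.14 Mb higher than the approximate position used here. For Shox2 the difference was 0.197 Mb and for Trps1 0.168 Mb. This matters for distances to a gene and less for the peaks themselves, which are given at the listed coordinates. Placements on the GRCm38.p6 position are given below for comparison only, since listed summits of chromosome 7 run past that table's last gene.

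Sequences under the peaks were not used here, since no genome of the list's build was at hand. Of the 3 genes, Shox2 had an entry in the RefSeq promoter table of GRCm38.p6, and its promoter is shown because a listed peak lay about 0.01 Mb from the approximate position of the gene, on the side where its transcription starts. At that rounding it cannot be told whether the peak reaches the promoter. The 250 bases before the start of Shox2, on the minus strand and from 5′ to 3′, read as follows.
Shox2 promoter: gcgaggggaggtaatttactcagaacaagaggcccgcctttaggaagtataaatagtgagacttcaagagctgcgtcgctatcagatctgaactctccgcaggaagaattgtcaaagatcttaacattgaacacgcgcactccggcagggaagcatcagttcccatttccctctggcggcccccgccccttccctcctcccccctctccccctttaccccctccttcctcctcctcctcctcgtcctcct
TBX5 is known to bind a T-box half-site, written AGGTGTGA. Neither these letters nor their core GGTGT occurred in the 250 bases on either strand, so no base is in capitals. Over all 32851 promoter entries of the same length, 1.12% held AGGTGTGA and 36.2% held GGTGT, a count that includes the longer form.

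All 3 windows were denser in peaks than the rest of their chromosomes. The Sox9 window held 19.6 peaks per Mb against 4.71 on the rest of chromosome 11, a ratio of 4.15. The Shox2 window held 23.6 peaks per Mb against 5.36 on the rest of chromosome 3, a ratio of 4.41. The Trps1 window held 11.1 peaks per Mb against 3.85 on the rest of chromosome 15, a ratio of 2.89. The order of the first 2 turned with the borders: with each window shortened by 10% at each end, the ratio was 4.96 at Sox9 and 4.44 at Shox2. The borders of the Sox9 and Trps1 windows fell in long stretches without peaks. The last Sox9 peak (summit 112983635, signal 43.4) was 0.562 Mb from the next summit outside (113545738, signal 39.02), and the first (111122110, signal 22.1) was 0.593 Mb from the one before it (110529039, signal 38.7). The first Trps1 peak (50483282, signal 14.1) was 0.758 Mb from its neighbour outside (49725730, signal 33.2), and the last (51664731, signal 34.1) was 0.496 Mb from the next (52160867, signal 22.1). The lower border of the Shox2 window cut through a run of peaks: a summit at 66205091 (signal 81.4) was inside and one at 66180902 (signal 31.6), 0.0242 Mb away, was outside. At its higher border the last peak inside (67145045, signal 38.5) and the first outside (67325128, signal 25.4) were 0.18 Mb apart.

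**Figure D1:**
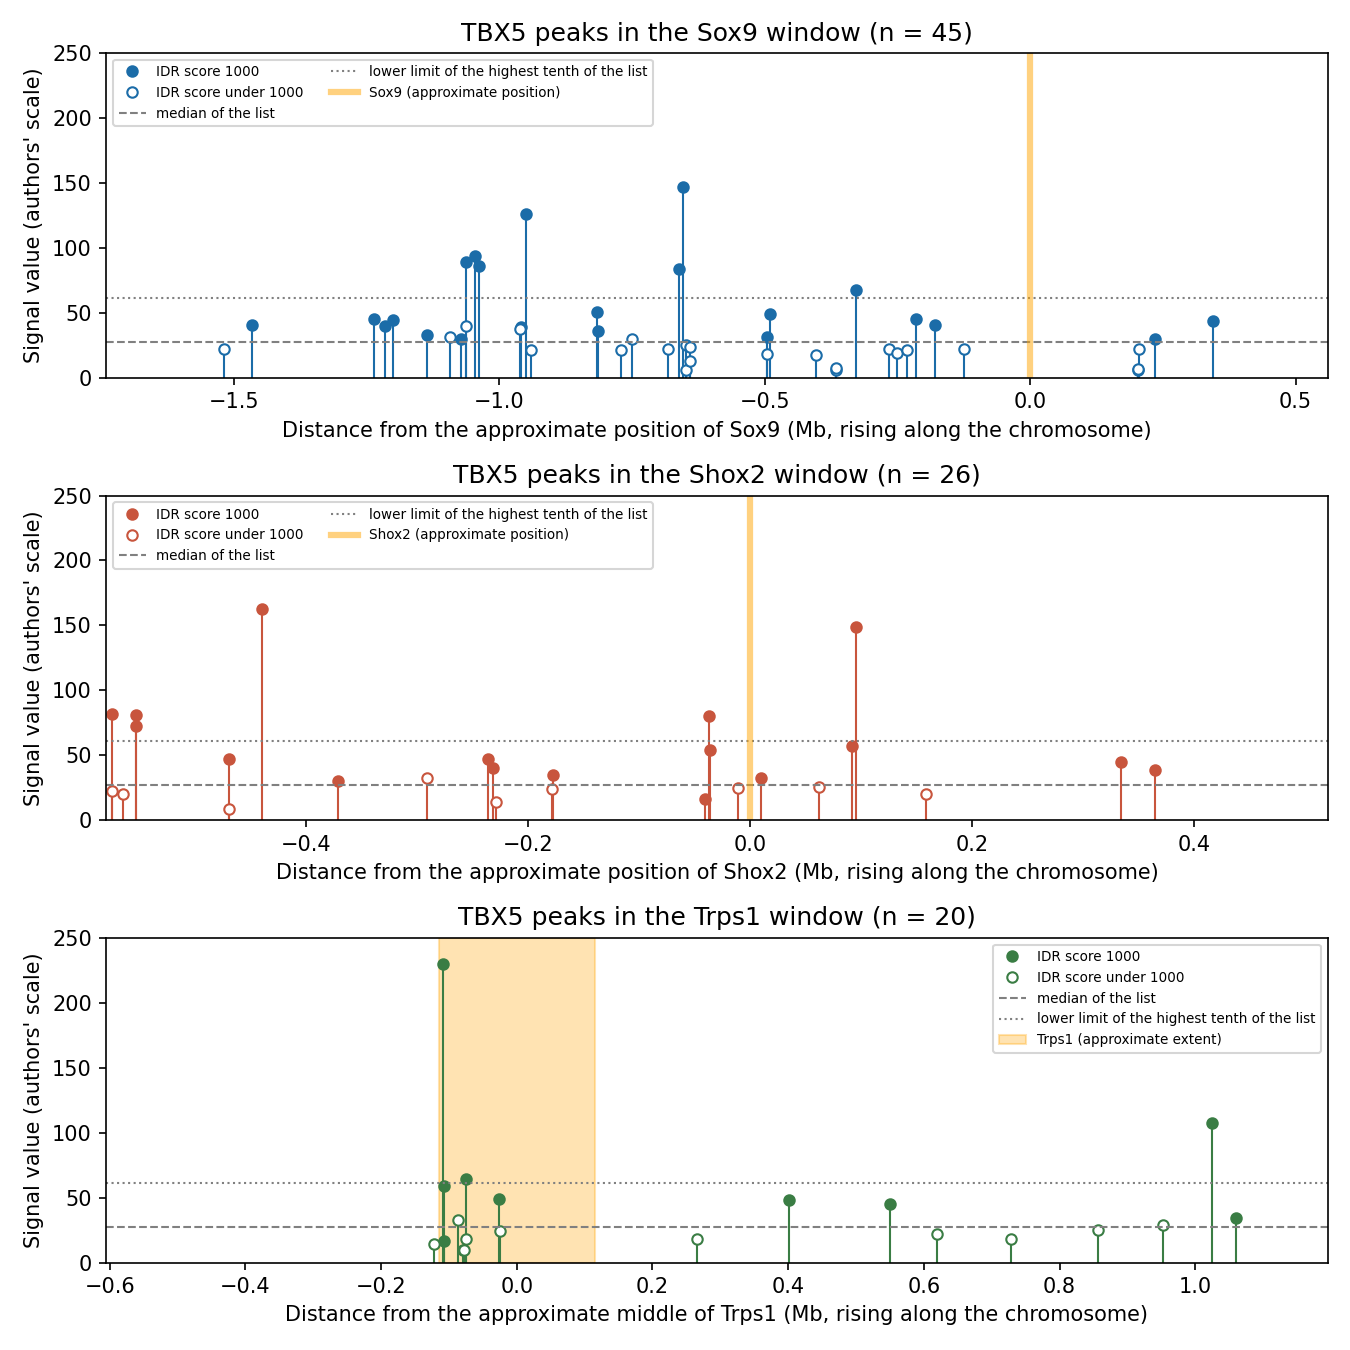
TBX5 peaks in the 3 windows, drawn at the distance of each summit from the approximate position of the gene (x axis, Mb) with the signal value of the peak as height (y axis, the authors' scale). At Trps1 the distance is drawn from the middle of the approximate extent, whereas the text measures from its nearer end. Filled circles are peaks with the highest IDR score of 1000 and open circles are peaks with a lower score; the dashed line is the median of the list (27.2), the dotted line the lower limit of its highest 10%, and orange marks the gene. Of the 45 Sox9 peaks 40 lie below the gene, and the tallest line of all, at 230.3, is at the lower end of Trps1.

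Around Sox9, most peaks were spread over the side in front of the gene, and none was listed close to its approximate position. Sox9 is transcribed toward rising coordinates, so its lower side is upstream. There 40 of the 45 peaks (88.9%) lay, at 22.99 peaks per Mb, against 5 peaks on the higher side, at 8.93 per Mb. No summit was nearer than 0.125 Mb to the approximate position of Sox9. The 2 nearest, 1 on either side, were 0.329 Mb apart, which was the longest gap of the window. On the gene table's position for GRCm38.p6 the nearest peak would be 0.0559 Mb from Sox9, and no summit would fall inside the gene.

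Most of the signal upstream lay between 0.5 and 1.25 Mb from Sox9. This stretch held 69.3% of the summed signal of the window and 6 of its 7 peaks in the highest 10% of the list, with 25 peaks in all. Peak number was more even. Counted in steps of 0.25 Mb away from the gene, there were 4, 9, 8, 7 and 10 peaks, followed by 1 and 1 in the last steps. By RefSeq order the nearest protein-coding genes on this side are Gm11677, a predicted gene, and beyond it Kcnj2, which encodes a potassium channel. On the other side lies Slc39a11, which encodes a zinc transporter. Distances of the peaks to these neighbours were not measured, so some peaks may lie nearer to them than to Sox9.

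The strongest peak of the Sox9 window was on chromosome 11 at 111986645 to 111986981, 0.65 Mb upstream, with a signal of 146.7, which is 5.4 times the median of the list and rank 78 in it. On chromosome 11 1 listed peak was stronger. The next was at 111689977 to 111690320, 0.95 Mb upstream, with a signal of 125.9. The following 3 lay 1.05, 1.06 and 1.04 Mb upstream, with signals of 94.03 (111593424 to 111593676), 88.7 (111576600 to 111576842) and 85.9 (111601800 to 111602026). These 3 thus stood within 0.0252 Mb of each other, and all 5 had the highest score of 1000.

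The strongest peak also belonged to the largest cluster of the window, summits linked by gaps of 10000 bp or less. It held 6 peaks over 20.5 kb, from 111978715 to 111999255. A second strong peak (111978715, signal 83.5) opened it, 8107 bp before the strongest summit. The other 4 formed 2 close pairs. In the first, summits at 111990960 and 111991211 had signals of 5.72 and 25.3, and in the second, summits at 111998977 and 111999255 had signals of 23.9 and 12.6. All 4 were below the median of the list, and their scores ran from 549 to 998.

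The peaks within 0.25 Mb of Sox9 were below the strongest of the window, with signals of up to 45.0 upstream and 29.7 on the higher side. The closest upstream summit, at 112515044, had a signal of 22.4 and a score of 709. The summits that followed upstream were stronger, at 112460413 (signal 40.8) and 112424672 (signal 45.0), both with a score of 1000. On the higher side, 3 summits within 0.537 kb of each other, from 112843704 to 112844241, had signals of 5.65, 6.46 and 22.3, and their listed intervals joined into 1. They were followed by peaks at 112875717 (signal 29.7) and 112983635 (signal 43.4), both with a score of 1000. The highest signal on this side was thus 43.4, against 146.7 upstream, and none of its 5 peaks was in the highest 10% of the list.

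Around Shox2, peaks lay on both sides and came close to the gene. Shox2 is transcribed toward falling coordinates, so its lower side is downstream. That side held 19 of 26 peaks, at 32.8 per Mb with a median signal of 34.5, and the higher, upstream side held 7, at 13.5 per Mb with a median of 38.5. The nearest summits were at 66768940 and 66789568, about 0.01 Mb to either side, with signals of 24.4 and 32.6 and scores of 806 and 1000. These sides rest on the approximate mm9 position. On the GRCm38.p6 position of Shox2, given for comparison only, 24 of the 26 peaks would lie on the lower side and 2 on the higher. The nearest summit would then be 0.0335 Mb away. Downstream the nearest protein-coding genes by RefSeq order are Veph1 and Ptx3, and upstream Rsrc1, which overlaps the start of Shox2, and then Mlf1. How far Rsrc1 reaches was not measured, so peaks called upstream of Shox2 may lie within Rsrc1.

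By the approximate position of the gene, the 2 strongest peaks of the Shox2 window stood on opposite sides of it, whereas on the GRCm38.p6 position both would lie on the lower side. The first was downstream at 66339677 to 66340022 on chromosome 3, 0.44 Mb from the gene, with a signal of 162.2 (rank 51 of the list, 5.97 times its median) and no other summit within 29331 bp. The second was upstream at 66874497 to 66874996, 0.095 Mb from the gene, with a signal of 148.8 (rank 70), and at 500 bp it was the widest peak of the 3 windows. A peak of signal 56.8 (summit 66871677) lay 3175 bp from it. On the rest of chromosome 3 and in the window together, 6 peaks were stronger than the first.

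The next 3 in strength were all downstream. At the lower border, a peak at 66204981 to 66205188 had a signal of 81.4 and a neighbour of 22.6 at a distance of 203 bp. A close pair at 66226512 and 66226777 had signals of 72.1 and 81.1, both scored 1000, and the weaker reached 0.89 of the stronger. The fifth peak, at 66742591 to 66742820 with a signal of 80.4, was 0.037 Mb from Shox2. It belonged to the cluster with the highest summed signal among the clusters of 3 in this window, with summits at 66739208, 66742700 and 66743743 and signals of 16.2, 80.4 and 53.7. All 3 had a score of 1000 although the first was below the median of the list. Other clusters of 3 stood at the lower border (66205091 to 66215056) and 0.23 Mb downstream (66543696 to 66550606, highest signal 47.3). The last peak upstream, at 67145045, had a signal of 38.5.

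Around Trps1 the peaks fell in 2 sets, 1 at the gene and 1 far to its higher side. With the approximate extent of 50.49 to 50.72 Mb, 10 of 20 peaks lay in the gene, at 43.5 per Mb, all in its lower part up to 50579804. Trps1 is transcribed toward falling coordinates, so this is the part toward its 3′ end. A single peak (50483282, signal 14.1) lay just below the gene and 9 lay above it, at 8.33 per Mb. The stretch between the sets, 0.291 Mb from 50579804 to 50870690, held no summit and included the start of the gene. This placement rests on the approximate mm9 extent. By the gene table of GRCm38.p6, given for comparison only, a single summit in place of 10 would fall in Trps1. The strongest peak would then lie 0.158 Mb below the gene. Since the extent is approximate, exon or intron was not assigned.

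The strongest peak at Trps1, at 50496368 to 50496736 on chromosome 15, had a signal of 230.3. It ranked 7 in the list, at 8.48 times its median, and no peak of chromosome 15 was stronger. This single peak made up 26.3% of the summed signal of the window, against 12.9% for the strongest peak at Shox2 and 8.39% at Sox9. The strongest 5 together made up 58.3% at Trps1, 43.99% at Shox2 and 30.9% at Sox9. At 1107 bp from the strongest summit stood a summit with a signal of 59.0, and 202 bp farther one of 16.4. Both were listed with the same interval, 50497510 to 50497886, and all 3 had a score of 1000.

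The largest cluster of the Trps1 window held 5 peaks over 10.95 kb, from 50519049 to 50530003. Its strongest summit (50529804) had a signal of 64.2 and a score of 1000, and a summit 199 bp away had 18.5 and a score of 888. A pair at 50526272 and 50526633 had signals of 9.96 and 9.65 and the same score of 637. The remaining peak, at 50519049, had a signal of 32.5 and a score of 976. The last group inside the approximate extent of the gene, at 50578638 and 50579804, had signals of 49.3 and 24.3.

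The 9 peaks above Trps1 were isolated, none with another summit within 10000 bp. The second strongest peak of the window was among them, at 51630004 to 51630326, 0.91 Mb from the gene, with a signal of 107.5 and rank 221 in the list. The last peak (51664731, signal 34.1) followed 34574 bp after it. The first of this set, at 50870690, was weak, with a signal of 18.3 and a score of 749. By RefSeq order the next protein-coding gene on this side is Eif3h, which encodes a subunit of a translation initiation factor, and on the lower side Csmd3. Distances to Eif3h were not measured, so the farthest of these peaks may lie nearer to it than to Trps1, or in it. A distance from Trps1 therefore does not assign a peak to that gene.

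**Figure D2:**
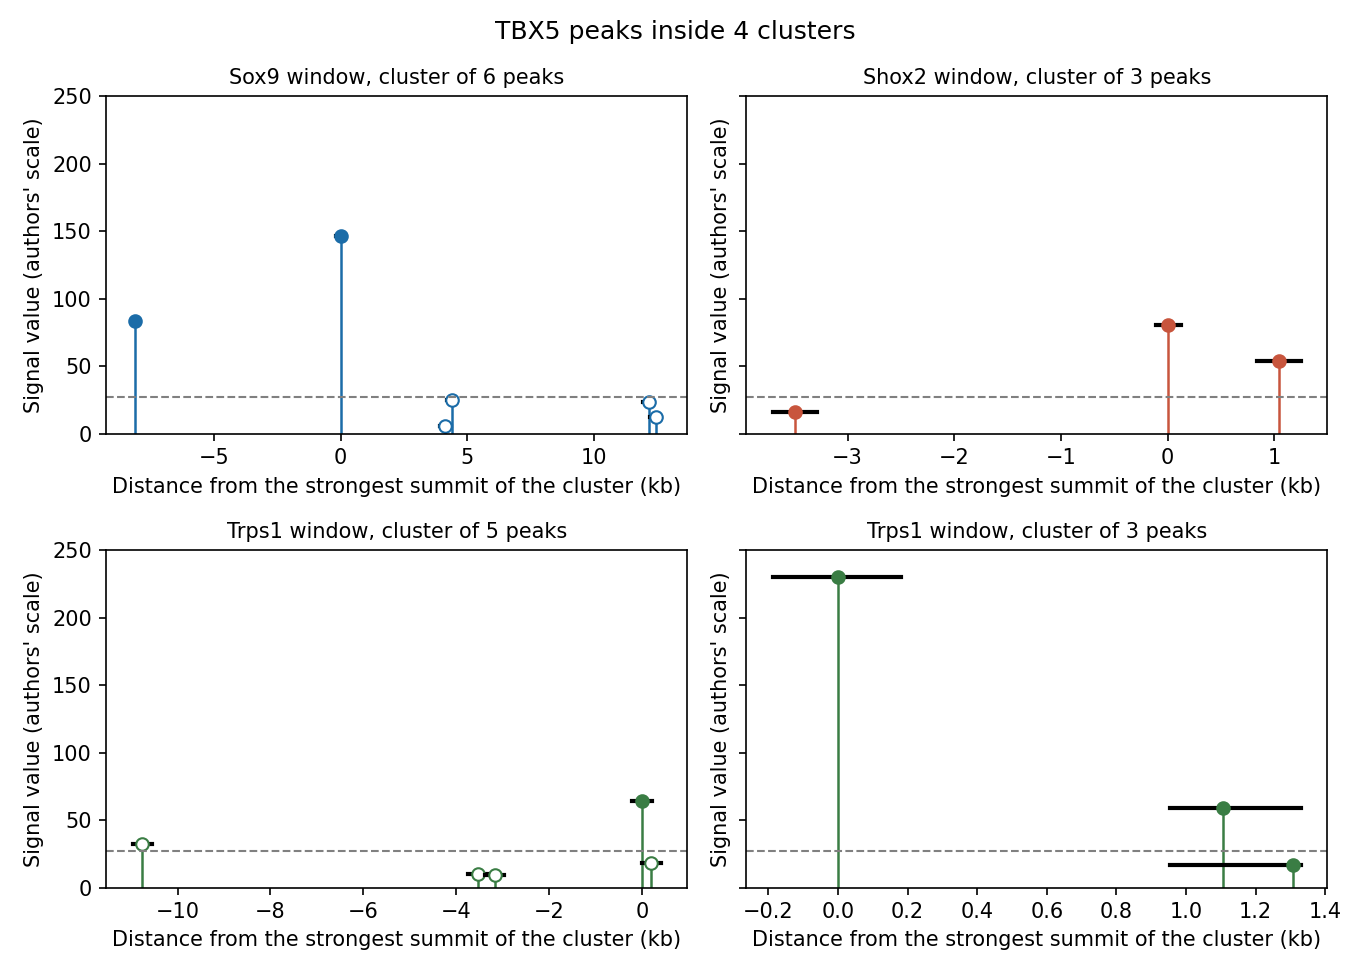
Peaks inside 4 clusters: the cluster of most peaks in each window and, at Trps1, also the one around its strongest peak. The x axis is the distance of each summit from the strongest summit of its cluster (kb), the y axis the signal value (the authors' scale); black bars are the listed intervals, filled circles have a score of 1000, open circles a lower one, and the dashed line is the median of the list. In each panel 1 or 2 strong peaks stand beside weaker ones, and the 2 summits at the right of the last panel share 1 interval.

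By signal, the deposited strength that the authors' peak caller gave each peak, the windows overlapped widely with the list. The median was 30.9 at Sox9 (quartiles 21.5 and 44.4, range 5.65 to 146.7), 36.5 at Shox2 (24.2 and 55.98, range 8.41 to 162.2) and 26.97 at Trps1 (18.5 and 48.5, range 9.65 to 230.3). The whole list had a median of 27.2 and quartiles of 20.3 and 39.96. The median at Trps1 was thus at the level of the list. Among the peaks at an IDR of 0.01 or below, the medians were 43.4 at Sox9, 47.1 at Shox2 and 46.6 at Trps1. The median of the list at that limit is not given here, so these 3 values are not set against it. At Trps1 10 of its 20 peaks were above the median of the list, against 26 of 45 at Sox9 and 17 of 26 at Shox2. Of the 91 peaks, 16 (17.6%) were in the highest 10% of the list, 7 at Sox9, 6 at Shox2 and 3 at Trps1. Since signal was in view when the windows were chosen, nothing is read from these shares.

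**Figure D3:**
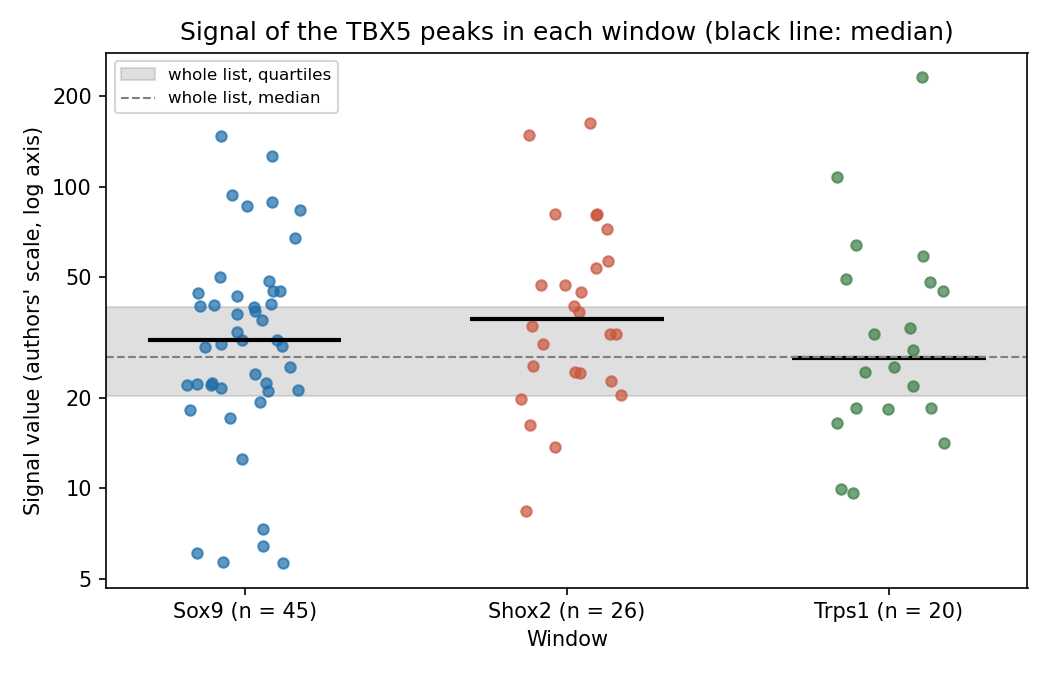
Signal of each TBX5 peak (points; y axis, the authors' scale on a log axis) by window (x axis), with the median of the window as a black line and the quartiles and median of the whole list as a grey band and dashed line. Points are spread sideways for legibility. The medians of 30.9, 36.5 and 26.97 all fall inside the grey band, and each window has a few peaks far above it.

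Reproducibility between the ChIP replicates is recorded in the list by the score of the irreproducible discovery rate (IDR), in which a higher score marks a peak found more consistently in both replicates. The score ran from 541 to 1000 in the 3 windows, and 540 stands for the list's limit of an IDR of 0.05. The ceiling of 1000 was reached by 48 of the 91 peaks (52.7%), against 45.4% of the list, with 22 of 45 at Sox9, 17 of 26 at Shox2 and 9 of 20 at Trps1. An IDR of 0.01 or below was reached by 56 peaks (61.5%), against 60.0% of the list. Both shares were near those of the list.

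Strong peaks were nearly all at the ceiling, as in the list. All 16 peaks in the highest 10% of signal scored 1000, as did all 1123 of the list. Of the 53 peaks above the median signal of the list, 46 (86.8%) scored 1000, against 84.3% in the list. The 7 exceptions included a Sox9 peak of signal 40.1 with a score of 605 (summit 111576957), whose stronger neighbour at 208 bp had 88.7, and a Trps1 peak of signal 28.7 with a score of 556 (summit 51557399), whose nearest summit was 72758 bp away. Of the 38 peaks at or below the median, 2 (5.26%) scored 1000, against 361 of 5612 (6.43%) in the list. They were the one of 16.2 near Shox2 and the one of 16.4 beside the strongest Trps1 peak.

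**Figure D4:**
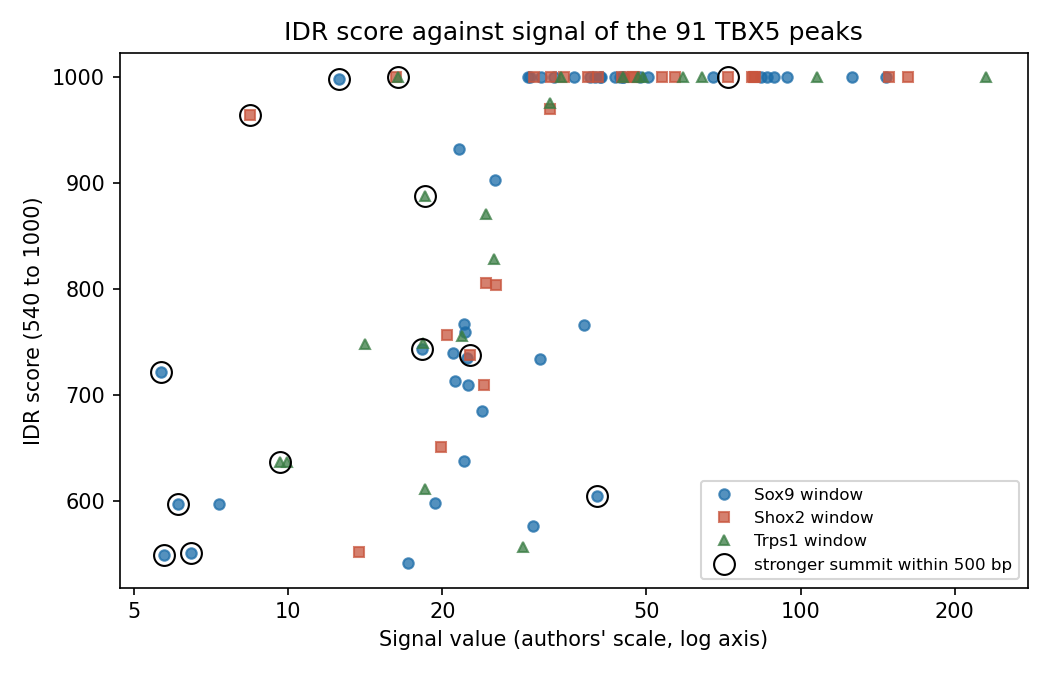
IDR score (y axis, 540 to 1000) against signal value (x axis, the authors' scale on a log axis) for the 91 peaks, by window. Black rings mark the 13 peaks that have a stronger neighbour at a distance of up to 500 bp. Every peak above a signal of 40.1 sits at the ceiling of 1000, and the ringed peaks lie mostly at low signal.

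Another summit lay within 10000 bp of 24 of 45 peaks at Sox9 (53.3%), 17 of 26 at Shox2 (65.4%) and 10 of 20 at Trps1 (50.0%), against 42.7% of the list. These peaks formed 8, 7 and 3 clusters, and the rest, 21, 9 and 10 peaks, stood alone. At Trps1 all 10 clustered peaks lay in the gene by its approximate mm9 extent. A stronger summit within 500 bp was present for 13 of the 91 peaks (14.3%), against 10.1% of the list, and the weaker summit of the 13 such pairs had a median of 0.452 of the signal of the stronger. Whether such a pair is 1 site or 2 was not tested. The peak caller's q-value was 0.05 or below for 83 peaks (91.2%), against 93.9% of the list. The 8 others, 5 at Sox9, 1 at Shox2 and 2 at Trps1, had signals of 5.65 to 9.96. A stronger summit within 500 bp was present for 6 of these 8, against 544 of 681 such peaks in the list.

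Most strong peaks did not have the common width. The common width of 416 bp was listed for 68 of the 91 peaks (74.7%), against 84.3% of the list. Among the 16 peaks in the highest 10% of signal it was listed for 1, the Trps1 peak at 50529804, and among the same share of the whole list for 4.19%. The other 15 ranged from the 153 bp of the Sox9 peak at 112311737 (signal 67.4) to the 500 bp of the second Shox2 peak.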

How the data were processed

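The authors deposited 1 peak list without a header for the 2 TBX5 ChIP libraries together, laid out as narrowPeak. Its deposited columns used here were start, end, summit, IDR score, signal value and the −log10 of the q-value. The scale of the deposited signal is not stated, and the column of p-values was not used. An IDR of 0.05 is the limit given by the list's own name. The aligner and peak caller are not given in the sources used here; the submitters' processing notes name mm10 and FastQC. The libraries held single-end reads of 75 bp, per the labels' protocols.

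Windows and approximate gene positions came with the request, and members, lists and measures were chosen with earlier results of these data known. Positions were converted to count from 1. Density is peaks per Mb, with the rest of a chromosome running from its first to its last summit. Single peaks were named by rule: in each window the 5 of highest signal, those nearest to the gene, the first, the last and those of the cluster with most peaks; further peaks were named after their values were seen. No statistical test was run, since the members were chosen on the peaks and no replicate values exist. Alternatives were an IDR of 0.01 or below, joined peaks, a q-value limit, peaks beside a stronger one left out, shorter windows, other distances, and windows placed by the GRCm38.p6 gene table. The last was added after the data were seen. Python 3.11.15 with pandas 2.3.3, NumPy 2.4.6, SciPy 1.17.1 and matplotlib 3.10.9 was used, and the counting of windows, neighbours and joins was tested on 20 simulated lists, in which every planted value was recovered.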

Additional observations from a re-analysis of the deposited data

How the results depend on the processing

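In total 66 alternative values were computed for the number of peaks, density ratio, median signal and share with a neighbour. At an IDR of 0.01 or below the number of peaks was 25 in place of 45 at Sox9 and 12 in place of 20 at Trps1, and the median signal was 43.4 in place of 30.9 at Sox9, 47.1 in place of 36.5 at Shox2 and 46.6 in place of 26.97 at Trps1. That limit keeps mostly strong peaks. The share of peaks with another summit within 2000 bp was 28.9% at Sox9, 38.5% at Shox2 and 45.0% at Trps1, and within 50000 bp it was 91.1%, 88.5% and 65.0%. The list had 28.9% and 66.8% at these distances. With the windows as given or shortened, density ratios ran from 3.87 to 4.96 at Sox9, 4.34 to 5.35 at Shox2 and 2.77 to 3.24 at Trps1. Sox9 was above Shox2 with shortened windows. Windows placed by the GRCm38.p6 gene table, given for comparison only, had ratios of 4.15 at Sox9 and 3.2 at Shox2. Placed by the GRCm38.p6 gene table, the windows held 45, 19 and 20 peaks. No paired analysis was possible because each peak carries 1 value for the ChIP group, and no replicate could be left out for the same reason. Without read depth, the list cannot show which sites were missed for lack of reads.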
